A study of Mus musculus with 10 samples.

Results

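Transcripts of 8 genes that hydrolyse stored neutral lipid, or that regulate this step, were examined in brown adipose tissue of cold-exposed and control mice. They are Pnpla2, Pnpla3, Lipe, Mgll, Abhd5, Abhd6, G0s2 and Lipa, taken by symbol from a table of 20295 genes. Each of the 8 was found once, and all 8 had enough reads to be tested. The tissue was the interscapular depot of male C57BL/6JBomTac mice, 8 weeks old, single-housed on chow before the experiment. The cold group was 5 mice kept at 4 °C for 3 days, and the control group was 5 mice kept at 22 °C. One poly-A selected library was sequenced per mouse. Both groups share strain, sex and age, and the housing and diet given for the time before the experiment. Values are read counts scaled to a common library total (CPM), with TMM factors that correct the totals for differences in composition. Fold changes are log2 values of cold over control with their standard error (SE).

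Lipolysis is the stepwise release of fatty acids from the triacylglycerol of lipid droplets. In adipocytes Pnpla2 (adipose triglyceride lipase) removes the first fatty acid, Lipe (hormone-sensitive lipase) acts on the diacylglycerol that is left, and Mgll (monoacylglycerol lipase) frees the last one with glycerol. Abhd5, also called CGI-58, activates Pnpla2, whereas G0s2 inhibits it, and noradrenaline released onto brown adipocytes in the cold drives the cascade through cyclic AMP and protein kinase A. Much of this control acts on proteins, by phosphorylation and by binding, which transcript counts do not measure. The released fatty acids fuel brown fat mitochondria and activate the uncoupling protein Ucp1.

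Library totals lay between 5676963 and 6923932 counts in cold libraries and between 4446163 and 5776905 in control libraries. All 12 brown adipocyte markers were detected and summed to 37019 to 42372 CPM in cold and 27000 to 30068 CPM in control libraries. Among them 3 rose (Ucp1, Elovl3 and Cox7a1) and 2 fell (Adipoq and Cox8b), and Ucp1 was at 17145 to 19457 CPM in cold and 8061 to 9934 CPM in control libraries. The 8 white adipocyte markers summed to 29.1 to 125 CPM in cold and 46.6 to 171 CPM in control libraries; 5 were detected, of which 1 rose (Nnat), and 3 (Tcf21, Hoxc9 and Hoxc10) had no read in any library. Control replicate 2 and cold replicate 5 lay apart from their groups on the second principal component, at -36.5 and -23.5, against -0.88 to 6.03 for the remaining cold mice and 2.30 to 23.7 for the remaining controls. Calls of the 8 genes that change without these libraries are given with and without them. In whole tissue, fewer cells of a type and less RNA per cell cannot be told apart.

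Of the 8 genes, Mgll and Lipa rose and Pnpla3 fell after cold exposure, while Pnpla2, Lipe, Abhd5, Abhd6 and G0s2 did not pass the test. These 3 of 8 stand beside 19.3% of all genes tested that passed it (10.2% higher, 9.16% lower). The test was edgeR's quasi-likelihood test over 11229 genes with Benjamini-Hochberg adjustment and a threshold of 0.05. Changes of the called genes ran from 0.47-fold (Pnpla3) to 1.67-fold (Mgll). In the same 3 genes no cold library lay within the control range or the reverse, which held for 14% of all genes tested (7.39% with cold above, 6.58% with cold below). At an unadjusted p under 0.05 Abhd5 joined them, making 4 of 8, beside 34.1% of all genes tested.

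**Figure D1:**
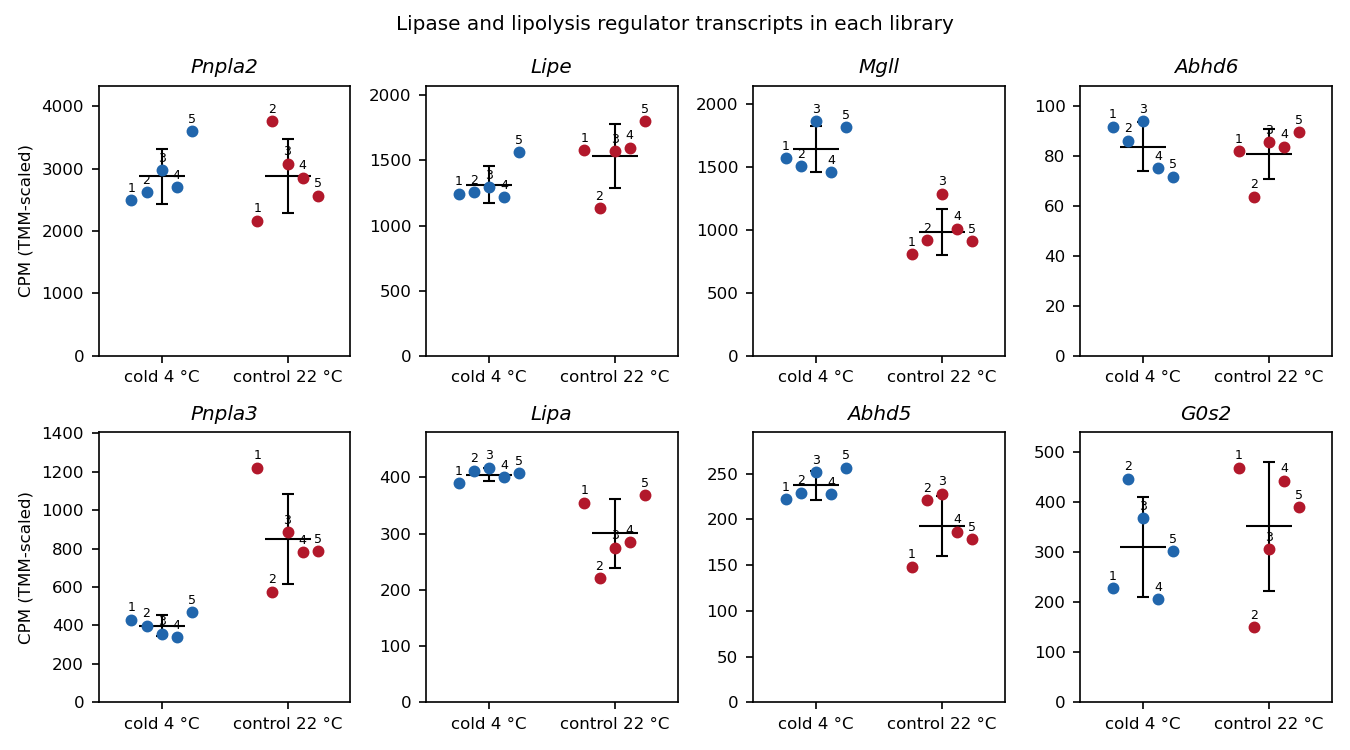
CPM of each of the 8 transcripts (vertical axes from 0) in the 5 cold and 5 control libraries; numbers are replicates, bars are means ± SD. Mgll and Lipa lay higher in every cold library than in any control, Pnpla3 lay lower in every cold library, and the groups overlapped for the other 5 genes.

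Pnpla2, the lipase of the first step (mm9 chromosome 7, 148641087 to 148646642), was the most abundant of the 8 and was at nearly the same mean level in both groups. Its level was 2493, 2621, 2970, 2706 and 3599 CPM in cold replicates 1 to 5, against 2165, 3757, 3078, 2851 and 2565 CPM in control replicates 1 to 5. The groups overlapped fully, and the highest value of each group came from cold replicate 5 and control replicate 2. The log2 fold change was -0.0029 (SE 0.14, adjusted p = 0.991 in edgeR's quasi-likelihood test), with a 95% confidence interval of -0.31 to 0.30. Changes larger than about 1.23-fold upward or below 0.81-fold lay outside that interval.

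Lipe, the diacylglycerol lipase and a target of protein kinase A (chromosome 7, 26164546 to 26181006), was lower on average in the cold without passing the test. Cold replicates 1 to 5 held 1244, 1256, 1294, 1216 and 1562 CPM, against 1577, 1134, 1569, 1596 and 1800 CPM in control replicates 1 to 5. All 5 cold libraries lay below the control median, but control replicate 2 was the lowest of the 10. The fitted log2 change was -0.22 (SE 0.12, interval -0.48 to 0.03, adjusted p = 0.196). It was -0.32 without control replicate 2 (adjusted p = 0.0237) and -0.39 without that library and cold replicate 5 (adjusted p = 0.0020), each past the threshold in edgeR's quasi-likelihood test. Of the 10 fits that left out 1 library Lipe passed in 1, with values of -0.32 to -0.16 and an adjusted p of up to 0.380 in the same test.

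Mgll, the lipase of the last step, which also degrades the endocannabinoid 2-arachidonoylglycerol (chromosome 6, 88674406 to 88778354), rose 1.67-fold. Its level was 1574, 1507, 1865, 1458 and 1820 CPM in cold replicates 1 to 5, against 807, 920, 1289, 1011 and 910 CPM in control replicates 1 to 5. The lowest cold library exceeded the highest control, which was replicate 3. The log2 fold change was 0.74 (SE 0.12, interval 0.47 to 1.002, adjusted p = 0.00139), and it lay between 0.67 and 0.85 when each library was left out in turn, past the threshold each time.

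RefSeq lists a pair of overlapping start windows for Mgll in GRCm38.p6, and the upstream one (chr6:88724162-88724461, plus strand) is shown because Mgll was the member that rose most. Capitals mark the E-box CACGTG, which begins 44 bases before the listed start.
Mgll: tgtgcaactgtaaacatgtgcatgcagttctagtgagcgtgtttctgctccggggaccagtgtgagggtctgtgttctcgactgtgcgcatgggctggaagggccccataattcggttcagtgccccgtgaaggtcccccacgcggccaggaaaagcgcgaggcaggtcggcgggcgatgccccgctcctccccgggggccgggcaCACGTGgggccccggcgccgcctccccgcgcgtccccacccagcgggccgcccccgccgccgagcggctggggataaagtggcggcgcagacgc
The E-box letters occur in 7.15% of all 32851 promoter windows of this length.

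Abhd6, a membrane-bound hydrolase of monoacylglycerol and other lipids (chromosome 14, 8835416 to 8889069), was the least abundant of the 8 and did not pass the test. It was at 91.9, 86.2, 94.0, 75.3 and 71.8 CPM in cold replicates 1 to 5, against 81.9, 63.8, 85.5, 83.9 and 89.6 CPM in control replicates 1 to 5. The groups overlapped, with a log2 fold change of 0.05 (SE 0.11, interval -0.18 to 0.29, adjusted p = 0.771). Mgll rose and Abhd6 was not called, and the difference between their changes was not tested.

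Pnpla3, a droplet protein of the Pnpla2 family with hydrolase and acyltransferase activity and a transcript known in mice to rise with feeding and fall with fasting (chromosome 15, 83998246 to 84019951), fell to 0.47-fold. Its level was 430.0, 399, 357, 338 and 470.3 CPM in cold replicates 1 to 5, against 1220.3, 575, 884, 783 and 786 CPM in control replicates 1 to 5. Every cold library was below every control, and control replicates 1 and 2 were the extremes of a wide control range. The log2 fold change was -1.09 (SE 0.17, interval -1.45 to -0.73, adjusted p = 0.00076 in edgeR's quasi-likelihood test). With each library left out in turn it lay between -1.21 and -0.93 and passed the threshold each time.

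The promoter window of Pnpla3 (GRCm38.p6, chr15:84167566-84167865, plus strand) is shown because Pnpla3 had the largest change of the 8 genes. Capitals mark the letters TGACGTCA of the cyclic AMP response element, which begin 46 bases before the listed start.
Pnpla3: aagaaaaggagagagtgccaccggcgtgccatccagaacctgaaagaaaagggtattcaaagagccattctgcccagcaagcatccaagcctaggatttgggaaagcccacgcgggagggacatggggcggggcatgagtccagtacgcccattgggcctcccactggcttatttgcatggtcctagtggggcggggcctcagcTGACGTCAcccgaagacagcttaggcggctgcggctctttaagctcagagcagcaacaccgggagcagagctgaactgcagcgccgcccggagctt
These letters occur in 1.79% of all promoter windows, and among the 11 windows listed for the 8 genes only in this one.

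Lipa, the acid lipase that hydrolyses triacylglycerol and cholesteryl ester inside lysosomes (chromosome 19, 34566806 to 34601964), rose 1.35-fold. Cold replicates 1 to 5 held 390, 412, 417, 400.0 and 407 CPM, a coefficient of variation of 2.66%, against 355, 220.4, 275, 285 and 368 CPM in control replicates 1 to 5, a coefficient of 20.3%. The groups did not overlap, but control replicate 5 lay just under the lowest cold library. On the log2 scale the change was 0.43 (SE 0.12, interval 0.17 to 0.69, adjusted p = 0.0246). The call was lost without cold replicate 2 (adjusted p = 0.0547), cold replicate 3 (0.0580), control replicate 3 (0.0592) or control replicate 4 (0.0592) in edgeR's quasi-likelihood test, with values of 0.42, 0.42, 0.40 and 0.41.

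Macrophages also express Lipa, so its values were set beside their markers. The 13 macrophage markers summed to 82.1 to 261 CPM in cold libraries and 120 to 202 CPM in control libraries, and of the 12 tested 2 were higher (Cd68 and Itgam) and 1 was lower (C1qa). Cold replicate 5 had the lowest macrophage sum of the 10 libraries, 82.1 CPM, with Lipa at 407 CPM. Cold replicate 4 had the highest, 261 CPM, with Lipa at 400.0 CPM. Among controls, replicate 2 had the lowest macrophage sum, 120 CPM, and the lowest Lipa, 220.4 CPM. Control replicate 5 had the highest of both among controls, 202 CPM of macrophage markers and 368 CPM of Lipa. In control replicates 1, 3 and 4 the macrophage sums were 131, 122 and 166 CPM, with Lipa at 355, 275 and 285 CPM. Beyond these values, the part of macrophages in the Lipa result was not tested. The promoter window of Lipa (GRCm38.p6, chr19:34527425-34527724, minus strand) is shown as that of the other member that rose. Capitals mark the CCAAT box, here read on the opposite strand, 26 bases before the listed start, which occurs in 37.4% of all windows.
Lipa: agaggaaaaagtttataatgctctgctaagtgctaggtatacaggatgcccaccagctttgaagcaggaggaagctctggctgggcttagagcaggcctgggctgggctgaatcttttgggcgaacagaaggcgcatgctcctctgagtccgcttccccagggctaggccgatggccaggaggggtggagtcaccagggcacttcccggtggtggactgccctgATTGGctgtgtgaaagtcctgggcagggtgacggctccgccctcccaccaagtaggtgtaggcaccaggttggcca

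In all, 6 motifs were searched on both strands of the promoter windows. The E-box, the cyclic AMP response element and the CCAAT box are spelled above, and the GC box was GGGCGG, found in 10 of the 11 windows of these genes and in 35.7% of all windows. The PPAR element was AGGTCANAGGTCA (0.0396% of all windows) and the SREBP site TCACNCCAC (1.24%), and neither was found in the 11 windows. None of the marked matches overlaps another motif. A match describes letters in a window and says nothing of binding.

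Abhd5, the activator of Pnpla2 (chromosome 9, 122260734 to 122290641), was higher on average in the cold and just missed the threshold. Its level was 221.9, 229, 251.99, 228 and 257 CPM in cold replicates 1 to 5, against 149, 221.2, 228, 187 and 179 CPM in control replicates 1 to 5. Every cold library lay above the control median, but control replicates 2 and 3 fell within the cold range or next to it. The log2 fold change was 0.30 (SE 0.11, adjusted p = 0.0719), and its 95% interval, which is not adjusted for the number of genes, was 0.06 to 0.54. It passed without control replicate 2 (0.35, adjusted p = 0.0351), without control replicate 3 (0.37, adjusted p = 0.0395) and when control replicate 2 and cold replicate 5 were both left out (0.32, adjusted p = 0.0485), in edgeR's quasi-likelihood test. Of the 10 fits that left out 1 library Abhd5 passed in 2, with values of 0.22 to 0.37 and an adjusted p of up to 0.152 in the same test.

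G0s2, the inhibitor of Pnpla2 (chromosome 1, 195098354 to 195099382), varied most between mice of one group and did not pass the test. Cold replicates 1 to 5 held 227, 447, 367, 206 and 301 CPM, against 468, 150.3, 305, 443 and 389 CPM in control replicates 1 to 5. Its coefficient of variation was 32.2% in cold and 36.6% in control libraries, where that of the other 7 genes was 2.66 to 15.3% in cold and 12.3 to 27.8% in control libraries. The log2 fold change was -0.18 (SE 0.28) with an interval of -0.78 to 0.42 (adjusted p = 0.685), so that a change down to 0.58-fold or up to 1.33-fold lay within it.

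**Figure D2:**
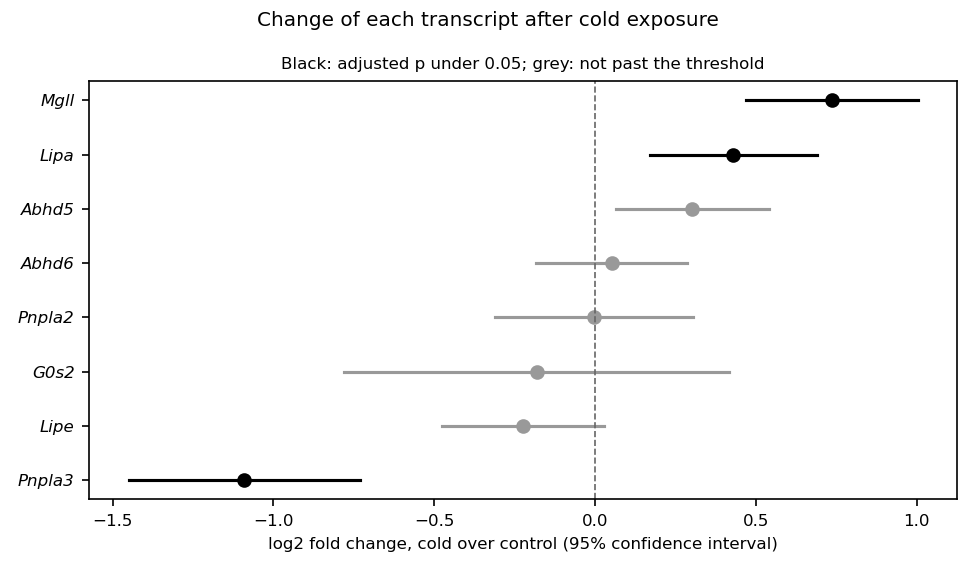
Log2 fold change of cold over control (horizontal axis) for each of the 8 genes with its 95% confidence interval, black where the adjusted p was under 0.05. Mgll (0.74) and Lipa (0.43) lie above 0 and Pnpla3 (-1.09) below it; the interval of G0s2 is the widest.

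Control replicate 2 stood at an end of the control range for 6 of the 8 genes. It had the highest Pnpla2 (3757 CPM) and the lowest Pnpla3 (575 CPM), Lipe (1134 CPM), Abhd6 (63.8 CPM), G0s2 (150.3 CPM) and Lipa (220.4 CPM) of the 5 controls. Cold replicate 5 had the highest Pnpla2, Lipe, Pnpla3 and Abhd5 and the lowest Abhd6 of the 5 cold libraries. Markers of other cell types also differed between libraries. The 8 fibroblast markers summed to 277 CPM in cold replicate 5, against 701 to 930 CPM in the remaining cold mice, with controls at 414 to 629 CPM. The 10 skeletal muscle markers summed to 342 and 236 CPM in cold replicates 2 and 3, to 7.46 to 13.3 CPM in the remaining cold mice and to 7.003 to 83.4 CPM in controls. The 8 endothelial markers summed to 893 to 1061 CPM in cold and 732 to 956 CPM in control libraries, and 2 of them rose (Kdr and Emcn). The part of these cell types in the results was not tested.

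Levels were compared between genes per length, as RPKM, which is CPM divided by the kilobases counted for the gene. Pnpla2 led in every library, at 1092 ± 167 RPKM in cold and 1094 ± 226 RPKM in control libraries (SD, n = 5), and Abhd6 was last in every library, at 41.5 ± 4.9 and 40.1 ± 4.9 RPKM in cold and control libraries. Lipe was next to Pnpla2 in mean level, at 545 ± 58.5 RPKM in cold and 637 ± 101 RPKM in control libraries. Mgll was at 447 ± 50.5 RPKM in cold and 269 ± 49.9 RPKM in control libraries, and G0s2 at 367 ± 118 and 417 ± 152 RPKM in the same order of groups. By mean, Mgll lay above G0s2 in the cold and below it in controls.

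Lower in the order, Lipa was at 137 ± 3.63 RPKM in cold and 101 ± 20.6 RPKM in control libraries, and Pnpla3 at 85.8 ± 11.5 and 183 ± 50.7 RPKM. Lipa had more RPKM than Pnpla3 in all 5 cold libraries, and Pnpla3 had more than Lipa in all 5 control libraries. Abhd5, at 75.4 ± 4.98 and 61.2 ± 10.4 RPKM in cold and control libraries, lay far under the Pnpla2 that its protein activates. In the cold, neighbours in this order overlapped over libraries for Lipe and Mgll, for Mgll and G0s2 and for Pnpla3 and Abhd5. In controls they overlapped for Lipe and G0s2, for G0s2 and Mgll, for Mgll and Pnpla3 and for Pnpla3 and Lipa.

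**Figure D3:**
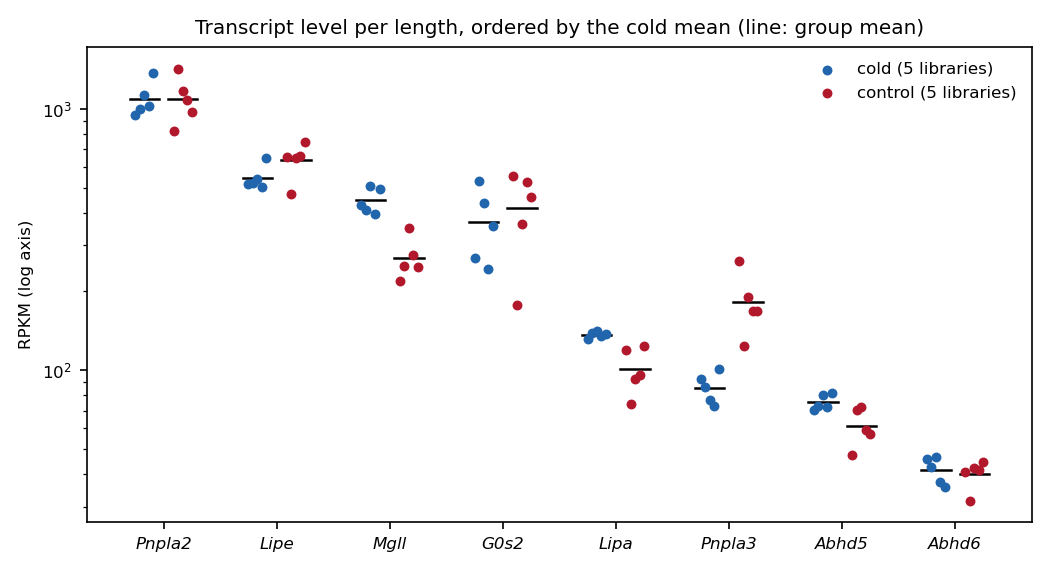
RPKM (log axis) of the 8 genes in each of the 5 cold and 5 control libraries, ordered by the cold mean, with lines at group means. Pnpla2 is highest and Abhd6 lowest in both groups, and Lipa and Pnpla3 change places between the groups.

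Ratios within a library cancel its scaling, and 5 were compared. They are built from the same counts as the fits above, so their p-values are not separate evidence for the calls. They are log2 ratios of CPM, tested with an exact two-sided permutation test of the libraries (smallest possible p = 0.00794) and adjusted over the 5 ratios. Mgll relative to Lipe was 0.32 ± 0.12 in cold and -0.64 ± 0.34 in control libraries (SD, n = 5), a difference of 0.96 (exact p = 0.00794, adjusted p = 0.0265), and in 5 of 5 cold libraries the ratio exceeded the highest control. Mgll thus had more CPM than Lipe in every cold library and fewer in every control. CPM is not corrected for length, and per length (RPKM) Lipe lay above Mgll in every library of both groups. Abhd5 relative to Pnpla2, activator to lipase, was -3.59 ± 0.13 in cold and -3.89 ± 0.12 in control libraries, a difference of 0.31 (exact p = 0.0159, adjusted p = 0.0265), with 4 of 5 cold libraries above every control.

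Pnpla3 relative to Pnpla2 was -2.85 ± 0.22 in cold and -1.78 ± 0.67 in control libraries, a difference of -1.07 (exact p = 0.0159, adjusted p = 0.0265). Here 4 of 5 cold libraries lay below every control, and control replicate 2, at -2.71, lay within the cold range. Lipe relative to Pnpla2 was -1.12 ± 0.09 in cold and -0.90 ± 0.51 in control libraries (difference -0.22, exact p = 0.333, adjusted p = 0.417). Control replicate 2 was at -1.73 in this ratio, and without it the difference was -0.43 (adjusted p = 0.0132, exact permutation test). G0s2 relative to Pnpla2, inhibitor to lipase, was -3.26 ± 0.48 in cold and -3.12 ± 0.94 in control libraries (difference -0.14, exact p = 0.794). It spanned -4.64 (control replicate 2) to -2.21 (control replicate 1) among controls, wider than the cold range of -3.71 to -2.55.

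**Figure D4:**
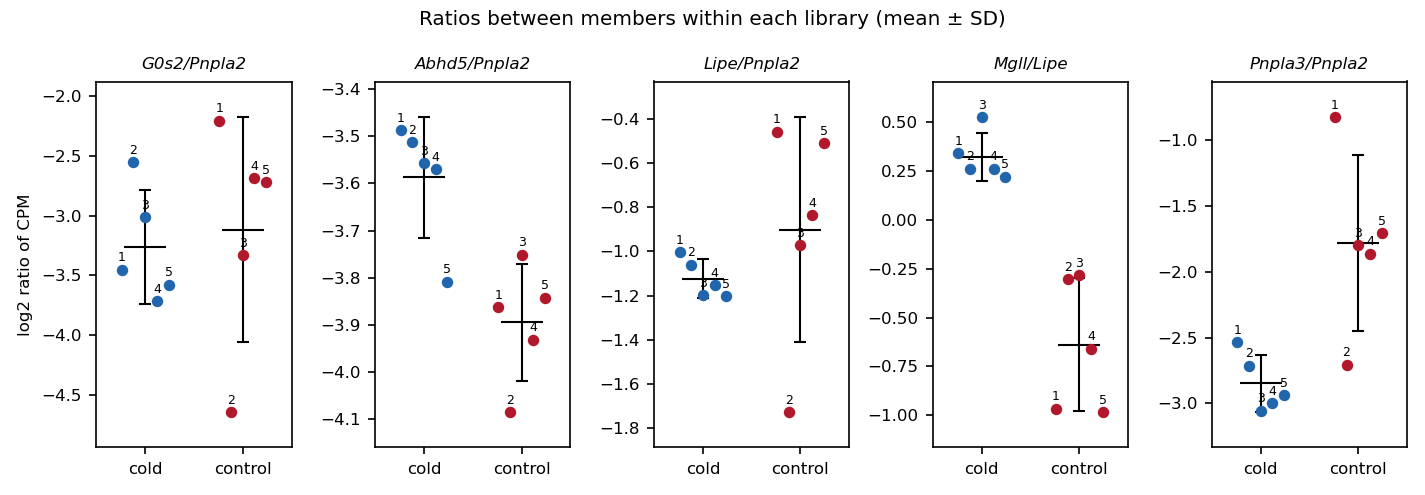
Log2 ratio of CPM within each library for 5 gene pairs, cold left and control right; numbers are replicates, bars are means ± SD. Mgll/Lipe separates the groups completely, and control replicate 2 is the lowest control for G0s2/Pnpla2, Lipe/Pnpla2, Pnpla3/Pnpla2 and Abhd5/Pnpla2.

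The authors' deposited table gives the same directions for these 8 genes, with a log2 fold change of -1.091 for Pnpla3, 0.734 for Mgll, 0.428 for Lipa and 0.299 for Abhd5. In the authors' deposited table the adjusted p is 1.08e-08 for Pnpla3, 4.8e-06 for Mgll, 0.0141 for Lipa and 0.0966 for Abhd5, and above 0.2 for the other 4 genes.

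Genes around these lipases were read from 7 lists. Together they held 112 tested genes, of which 23 rose and 18 fell (36.6%, against 19.3% of all genes tested), with a median log2 fold change of 0.06 against -0.02 over all genes tested. Without cold replicate 3, 15 rose, while over all genes 823 rose, against 1142 with all libraries. List counts in fits with libraries left out are therefore given beside the counts over all genes. Medians and counts describe the lists and were not tested.

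Among 13 tested perilipins and other droplet proteins 1 rose and 1 fell (15.4%, against 19.3% of all genes tested), both near the threshold. Aup1, a droplet and reticulum protein, was at 84.7 ± 6.9 CPM in cold and 70.0 ± 6.1 CPM in control libraries (log2 fold change 0.28, adjusted p = 0.0412). Plin3, a perilipin of small droplets, was at 147 ± 17 and 181 ± 19 CPM (-0.30, adjusted p = 0.04998). In the list 2 genes fell without cold replicate 5, and likewise when control replicate 2 was also left out. Over all genes 1131 and 1327 fell there, against 1029 with all libraries. The calls held in 2 (Aup1) and 1 (Plin3) of the 10 fits that left out 1 library. Plin2, the perilipin that tracks lipid load, was at 0.47 (adjusted p = 0.14) and passed only without control replicate 1 among these fits (0.76, adjusted p = 0.00185), and Fitm2, a droplet-forming protein, was at 0.25 (adjusted p = 0.205).

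Among 21 other tested lipid hydrolases 3 rose and 5 fell (38.1%, against 19.3% of all genes tested). Without control replicate 2, 5 rose, and likewise when cold replicate 5 was also left out. Of all genes 1281 and 1547 rose in these fits, against 1142 with all libraries. Ddhd2, a triacylglycerol and phospholipid hydrolase, was at 606 ± 40.9 CPM in cold and 422 ± 33.7 CPM in control libraries (0.52, adjusted p = 0.000751). Nceh1, a cholesteryl ester hydrolase, was at 20.002 ± 4.93 and 7.61 ± 0.94 CPM (1.3997, adjusted p = 0.000265). Pla2g16, an adipose phospholipase that is known to restrain lipolysis through prostaglandin E2, fell to 173 ± 18.8 CPM in cold, against 340.0 ± 51.8 CPM in control libraries (-0.97, adjusted p = 0.000108). Enpp2, which encodes autotaxin, fell by 0.74 (adjusted p = 0.000446).

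Of 20 tested genes of the beta-adrenergic and cyclic AMP signal upstream of lipolysis, 3 rose and 1 fell. These are 20% of the list, near the 19.3% of all genes tested. Gnas, the stimulatory G protein, was at 5106 ± 419 CPM in cold and 2845 ± 255 CPM in control libraries (0.84, adjusted p = 5.44e-05). Adcy3, an adenylyl cyclase whose model overlaps Cenpo on the other strand, was at 522 ± 85.1 and 180.0 ± 65.0 CPM (1.54, adjusted p = 0.000303), and Prkar2a, a regulatory subunit of protein kinase A, rose by 0.50. Leaving out cold replicate 1, cold replicate 3 or cold replicate 4 left no gene of the list that fell, while 2 fell without cold replicate 5 and 3 without control replicate 1 or control replicate 2. With control replicate 2 and cold replicate 5 both left out, 4 fell. Calls over all genes moved too, from 1029 that fell with all libraries. They were 800, 740 and 732 without cold replicate 1, 3 or 4, and 1131 without cold replicate 5. They were 1125 and 1157 without control replicate 1 or 2, and 1327 without both control replicate 2 and cold replicate 5.

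Of 13 tested genes of insulin and other antilipolytic signals, 3 rose and 6 fell (69.2%, against 19.3% of all genes tested). Hcar1, the lactate receptor that restrains lipolysis in adipocytes, fell to 10.97 ± 5.27 CPM in cold, against 44.6 ± 18.7 CPM in control libraries (-2.01, adjusted p = 0.00293), with overlapping groups. Adora1, the adenosine receptor with the same action, was at 108 ± 11.9 and 173 ± 18.5 CPM (-0.68, adjusted p = 0.000586). Irs1, an insulin receptor substrate, fell by 1.14 and Insr, the insulin receptor, rose by 0.45. Without cold replicate 3 or cold replicate 4, 1 gene of the list rose. Among all genes 823 and 838 rose in these fits, against 1142 with all libraries.

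Among 19 tested genes that handle the released fatty acid and glycerol, 5 rose and 1 fell (31.6%, against 19.3% of all genes tested). Gyk, the glycerol kinase, rose by 1.05, Gpd1, the glycerol phosphate dehydrogenase, by 0.66 and Acsl5, an acyl-CoA synthetase, by 1.301. Dgat2, which makes triacylglycerol from diacylglycerol, fell to 1778 ± 161 CPM in cold, against 2881 ± 616 CPM in control libraries (-0.70, adjusted p = 0.00375). The number that rose was 3 without cold replicate 2, control replicate 4 or control replicate 5. For all genes it was 884, 925 and 936 in these fits, against 1142 with all libraries. Leaving out control replicate 1 gave 4 that fell, leaving out control replicate 2 gave 3, and leaving out control replicate 2 with cold replicate 5 gave 2. In the same order 1125, 1157 and 1327 of all genes fell, against 1029 with all libraries.

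Of 24 tested genes of lysosomal lipid handling, the compartment of Lipa, 7 rose and 4 fell (45.8%, against 19.3% of all genes tested). The median log2 fold change of this list was 0.20. Lamp1, a lysosomal membrane protein, was at 1311 ± 144 CPM in cold and 792 ± 26.0 CPM in control libraries (0.73, adjusted p = 0.000106). Scarb2 (0.66) and the protease Tpp1 (0.46) also rose, while Npc2, which carries cholesterol out of lysosomes with Npc1, fell by 0.73 (adjusted p = 0.000405). Without cold replicate 3, 4 rose, and without cold replicate 4 or control replicate 4, 2 fell. Here 823 of all genes rose without cold replicate 3, against 1142 with all libraries. Without cold replicate 4 or control replicate 4, 732 and 804 of all genes fell, against 1029. Among 5 tested genes of endocannabinoid turnover, the other role of Mgll, 1 rose and 1 fell (40%, against 19.3% of all genes tested). Gde1 rose by 0.70 and Dagla, which makes 2-arachidonoylglycerol, fell by 0.47 (adjusted p = 0.0134), while Daglb (-0.13) and Abhd12 (0.26) were not called. Dagla, Daglb and Abhd12 also stand in the list of hydrolases.

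**Figure D5:**
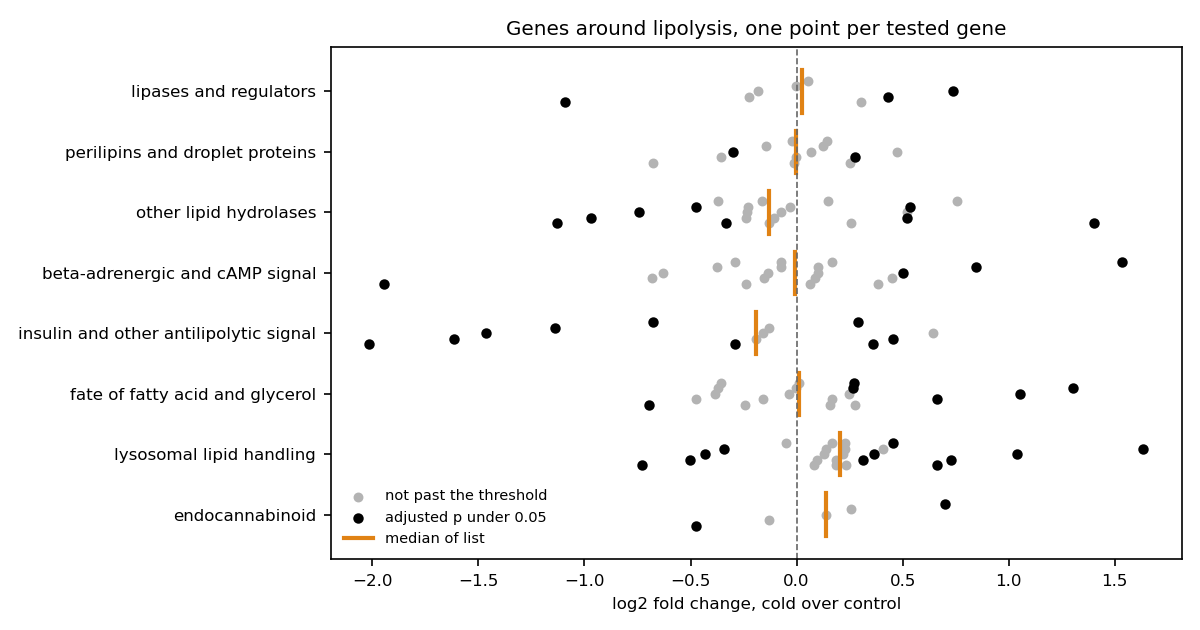
Log2 fold change of cold over control (horizontal axis) for every tested gene of the 8 lipases and regulators and of the 7 lists around them, black where the adjusted p was under 0.05, with the median of each list in orange. Medians lie between -0.19 and 0.20.

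The genes whose log2 CPM ran most like that of each of the 8 over the 10 libraries were found among 8897 genes with a mean log2 CPM of at least 3. Pearson's r was 0.985 between Mgll and Szrd1 and 0.974 between Mgll and Clec16a. It was 0.969 between Pnpla3 and Cyb5r3 and 0.966 between Pnpla3 and Sdc2. For Lipa it was 0.975 with Rmdn3 and 0.973 with Ptp4a3. The difference between cold and control enters these 3 pairs of values.

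For genes that were not called, group means were not removed either, so r mixes variation between mice with any difference between cold and control. Pnpla2 ran with Nadk2 (0.961) and Map1lc3b (0.943), Lipe with Map6 (0.950) and Ppp2r5a (0.950), and Abhd5 with 2610507B11Rik (0.971). Abhd6 ran with Ccnd2 (0.929) and Ftsj2 (0.919), and G0s2 with Senp8 (0.915) and Galm (0.912). These values describe the 10 libraries, which share the study's 2 groups, and carry no test.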

How the data were processed

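Poly-A selected RNA of 10 brown adipose tissue samples was sequenced, 5 per group. The authors deposited raw read counts per RefSeq gene model with the number of bases counted, per the file headers; STAR, edgeR and mm9 are named in the submitters' processing notes, and the read counter, strand setting and versions were not stated in the sources used here. A second deposited table holds the authors' log2 fold changes and log2 CPM with p-values and adjusted p-values, per the file headers. Control columns carry no group word and were matched to control samples by replicate number; all 10 columns of libraries were used. The treatment tag of the cold samples names room temperature beside 4 °C, whereas titles, source names and protocol give cold. Because no strand setting is given, overlapping genes could share reads: none of the 8 genes overlaps another gene model, and of the genes named from the lists around them Aup1, Adcy3 and Adora1 overlap a gene on the opposite strand.

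Counts were tested with edgeR 4.0.16 in R 4.3.3 (TMM, filterByExpr, quasi-likelihood F test, no covariate), two-sided, with Benjamini-Hochberg adjustment over 11229 genes. The SE is the log2 fold change divided by the square root of F. Ratios used log2 CPM with a prior count of 2. Each group was 5 mice per the labels, and no replicate pair agreed within sampling noise (chi-square per degree of freedom 3.31 to 38.7). The fit was tested on simulated data. Alternatives were RLE, upper quartile and no scaling, library sizes without the 20 most abundant genes, no filter, a CPM above 1 in at least 5 libraries, DESeq2 1.42.0, limma-voom (limma 3.58.1), a replicate block, each library left out, and control replicate 2 with cold replicate 5 left out. The text names all 8 genes, the 4 genes of smallest p per list, and the 2 genes most like each of the 8, except that 2 genes this rule names are not reported here. Members, lists and alternatives were chosen with earlier results of these data known. Promoter windows (250 bases before to 50 after a start) are from RefSeq, GRCm38.p6, a build other than that of the counts, and all 8 genes had one or more. Protein sequences were not used here.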

Additional observations from a re-analysis of the deposited data

Results flagged for a closer look

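In 26 checks of a gene or ratio within a group of 5 libraries, 2 values stood far from the others of their group, where chance flags about 1 in 20. Both are from cold replicate 5. Its Lipe level was 1560 CPM, against 1290 CPM in the next highest cold library. Its log2 ratio of Abhd5 to Pnpla2 was -3.81, against -3.57 in the next lowest cold library. Without this library Lipe was at -0.30 (adjusted p = 0.0821, edgeR's quasi-likelihood test).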

How the results depend on the processing

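The calls of Pnpla3 (-1.27 to -1.06) and Mgll (0.67 to 0.76) held under the 10 alternatives that were not single libraries left out, and so did that of Lipa (0.33 to 0.47, adjusted p up to 0.0354). Without 1 library 1 to 3 of the 8 genes rose and 1 to 2 fell, 823 to 1310 of all genes rose and 732 to 1157 fell, and 15 to 29 genes of the surrounding lists rose and 14 to 23 fell. With control replicate 2 and cold replicate 5 both left out, 3 of the 8 genes rose and 2 fell. Abhd5 was among those that rose and Lipe among those that fell. Calls over all genes also grew when either library was left out alone. Without control replicate 2, 1281 of all genes rose and 1157 fell, and without cold replicate 5, 1310 rose and 1131 fell. With all libraries 1142 rose and 1029 fell. The cause was not tested. Pnpla2, near 0, changed sign to 0.021 without scaling factors, 0.0082 with limma-voom, 0.0091 with the replicate block and 0.013 without both libraries, and lay between -0.10 and 0.11 with 1 library left out (0.045, 0.029, 0.019, 0.11 and 0.018 where its sign changed). Abhd6 lay between -0.027 (without control replicate 2) and 0.098. Plin3 lost its call under 4 scalings or filters and Aup1 under 3 alternatives.

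The labels name no pairing of mice by replicate number. In deviations from the group means 2 of 5 same-numbered pairs had a correlation over 0.1, which cannot settle whether mice were paired. With the replicate block 981 genes rose and 808 fell, and the calls of the 8 genes did not change. Among other named genes Plin2 passed under the replicate block (0.56, adjusted p = 0.0453, edgeR's quasi-likelihood test) and Aup1 did not (adjusted p = 0.0639), while 3 genes of fatty acid and glycerol handling rose and 2 of lysosomal lipid handling fell. In the ratios the replicate block allows no adjusted p under 0.05, and gave 0.31 (Abhd5/Pnpla2), 0.96 (Mgll/Lipe) and -1.07 (Pnpla3/Pnpla2) with an adjusted p of 0.104 each in the exact permutation test. Without both libraries Lipe/Pnpla2 was at -0.41 (adjusted p = 0.0357). With 1 library left out, the ratios ranged over -0.53 to 0.082 (G0s2/Pnpla2, above 0 without control replicate 1), 0.26 to 0.36 (Abhd5/Pnpla2), -0.43 to -0.11 (Lipe/Pnpla2), 0.88 to 1.05 (Mgll/Lipe) and -1.30 to -0.83 (Pnpla3/Pnpla2). The 5 libraries per group limit precision: the interval of G0s2 spans 0.58-fold to 1.33-fold.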

Other observations

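Further members of the lists were called and fell outside the rule for named genes, and the following were chosen after their values were seen. Among receptors that restrain lipolysis, Ptger3, the prostaglandin E2 receptor coupled to inhibitory G proteins, was at 31.8 ± 9.3 CPM in cold and 87.9 ± 38.6 CPM in control libraries (log2 fold change -1.46, adjusted p = 0.00763 in edgeR's quasi-likelihood test), with overlapping groups. Hcar2, the receptor of the ketone body beta-hydroxybutyrate and of niacin, was at 2.48 ± 1.48 and 7.75 ± 3.40 CPM (-1.62, adjusted p = 0.0134). Both calls held with each library left out in turn. Ces1f, a carboxylesterase whose reads could be shared with close paralogs, fell by 1.13 (adjusted p = 0.00076), to 28.6 CPM in cold from 62.5 CPM in control libraries. Ces1d, a more abundant carboxylesterase of the same list, went the other way. It was at 1518 ± 102 CPM in cold and 1048 ± 268 CPM in control libraries (0.53, adjusted p = 0.0229 in edgeR's quasi-likelihood test), with overlapping groups. Abhd15, an adipocyte protein linked to the antilipolytic action of insulin, rose by 0.36 (adjusted p = 0.0271), a call held in 6 of the 10 fits without 1 library and lost with control replicate 2 and cold replicate 5 both left out (0.22, adjusted p = 0.0668 in edgeR's quasi-likelihood test).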
